A study of Mus musculus with 21 samples.

Results

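The genes described here are 57 genes of DNA replication and mitosis. They were chosen by symbol from a list of textbook components of S phase, G2 phase and mitosis. The rule uses no measured value, but the list was drawn up with earlier results of these data known. The genes comprise 28 replication genes and 29 mitosis genes, and all 57 were present in the deposited table of 11628 genes. RNA was measured in 21 libraries of bone marrow progenitors from mice homozygous for a germline mutation of Etv6, labelled ETV6 mt/mt and written h.P214L in the design of the series, and from wild-type mice. Etv6 encodes a transcriptional repressor of the ETS family. Each of 3 sorted populations had 4 mutant and 3 wild-type libraries, and the design counts 4 mutant and 3 wild-type mice, without saying whether 1 mouse gave all 3 populations. Haematopoietic stem cells (HSC) were sorted as cells without lineage markers that carried cKit, Sca1 and CD150 but neither FLK2 nor CD38. Lymphoid-primed multipotent progenitors (MPP4) also lacked lineage markers and had FLK2 beside cKit and Sca1 on their surface. The common lymphoid progenitors (CLP) were labelled as positive for IL7 and Flk2, with little cKit and Sca1. Libraries numbered 1 came from 12-week-old females, those numbered 2 from 12-week-old males and those numbered 3 from 10-week-old females in both genotypes. The mutant libraries numbered 4 came from females, labelled as 12 weeks old in HSC and MPP4 and as 10 weeks old in CLP. The stated interest of the study was inflammation and early lymphoid development.

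Replication starts when the loading factors Cdc6 and Cdt1 place the ring-shaped helicase made of Mcm2 to Mcm7 on origins. Cdc45 and the GINS complex then switch the helicase on, polymerases copy both strands around the sliding clamp Pcna, and ribonucleotide reductase supplies the building blocks. E2F factors drive many of these genes at the entry into S phase. Genes of G2 phase and mitosis, such as those of cyclin B, the Aurora and Polo kinases and the spindle motors, are transcribed later, under B-Myb and FoxM1, and are held down in resting cells by a repressor complex that binds a short promoter element, the cell cycle genes homology region (CHR). Most stem cells of adult bone marrow rest outside the cell cycle, whereas multipotent and lymphoid progenitors divide often.

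Both elements were looked for in the 250 bases before the annotated start, using RefSeq promoters of the mouse assembly GRCm38.p6, which held 47 of the 57 genes (23 replication and 24 mitosis genes). Both strands were searched. An E2F match was the run TTCCCGC, its variant TTGGCGC or the further variant TTCGCGC, which can overlap one another. A CHR match was the run TTTGAA, and the motif CCAAT, bound by the factor NF-Y and often found beside a CHR, was searched as well. An E2F match was present in 8 of 23 replication promoters (34.8%) and 4 of 24 mitosis promoters (16.7%), against 12.6% of the 9395 promoters of genes in the table. A CHR match was present in 3 of 23 replication promoters (13.0%) and 7 of 24 mitosis promoters (29.2%), against 10.6% of promoters of the table. CCAAT was present in 13 of 23 replication promoters (56.5%) and 20 of 24 mitosis promoters (83.3%), against 37.0% of promoters of the table. All 7 mitosis promoters with a CHR match also held CCAAT (29.2% of the 24, against 4.26% of promoters of the table). Over all 27025 RefSeq promoters the shares were 6.79% for E2F, 16.3% for the CHR and 34.5% for CCAAT. A match is a description of letters and not of binding.

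The promoters below are examples from both classes. They are the 2 of each class with the most matches in the 150 bases before the start that overlapped no annotated exon or other gene, ranked by E2F matches for replication and by CHR and CCAAT matches for mitosis. Capitals mark the matches. On the other strand a CCAAT motif reads ATTGG, a CHR match there reads TTCAAA, and the last of the E2F runs reads GCGCGAA. Mcm6, a subunit of the replicative helicase, lies on the minus strand with its window at chr1:128359706-128359855, and its 4 E2F matches overlap in pairs.
Mcm6: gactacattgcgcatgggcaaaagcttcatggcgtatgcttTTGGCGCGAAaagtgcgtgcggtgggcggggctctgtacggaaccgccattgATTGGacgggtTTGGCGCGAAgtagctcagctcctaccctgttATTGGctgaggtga
Rrm1, the large subunit of ribonucleotide reductase, lies on the plus strand with its window at chr7:102441545-102441694, and held 1 E2F match between 2 CCAAT motifs.
Rrm1: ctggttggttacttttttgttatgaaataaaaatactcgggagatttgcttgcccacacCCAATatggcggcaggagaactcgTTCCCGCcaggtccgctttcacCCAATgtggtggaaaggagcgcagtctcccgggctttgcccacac
Ccnb2, a B-type cyclin that activates Cdk1 in mitosis, lies on the minus strand with its window at chr9:70421555-70421704, and held 3 CCAAT motifs.
Ccnb2: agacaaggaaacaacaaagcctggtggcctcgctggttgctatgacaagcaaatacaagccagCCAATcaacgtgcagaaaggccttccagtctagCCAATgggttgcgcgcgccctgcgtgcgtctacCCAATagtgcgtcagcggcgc
Kif11, the kinesin that pushes spindle poles apart, lies on the plus strand with its window at chr19:37376232-37376381, and held 1 CCAAT motif and 1 CHR match.
Kif11: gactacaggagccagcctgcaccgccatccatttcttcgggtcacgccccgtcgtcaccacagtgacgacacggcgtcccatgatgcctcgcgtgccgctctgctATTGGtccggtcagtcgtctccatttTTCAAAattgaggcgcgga

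Values are RPKM, read numbers scaled to transcript length and library size, as deposited. Differences are on the log2(RPKM + 1) scale with their standard errors, and the calls are those of limma with Benjamini-Hochberg adjusted p under 0.05 over the 11496 genes that reached 1 RPKM in at least 3 libraries. All 57 genes passed that filter, and their values ran from 2.39 to 339.8 RPKM with no 0 in any library. The RPKM of a library summed to 337818 at the lowest and 376135 at the highest, and read depth is not known. Sort markers followed the labels. Slamf1, which encodes CD150, averaged 26.7 RPKM in mutant and 22.6 RPKM in wild-type HSC and at most 1.74 RPKM in MPP4 and CLP. Flt3, which encodes FLK2, averaged 13.97 and 14.9 RPKM in mutant and wild-type HSC, against 366 to 384 RPKM in the other 4 groups. Il7r averaged 89.8 RPKM in mutant and 91.3 RPKM in wild-type CLP, and at most 11.6 RPKM elsewhere. The mutation is a single amino-acid change, so transcript levels do not check the genotype labels.

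The libraries of 1 group were not equally alike, and 1 library stood apart. Wild-type HSC replicate 3 had the lowest value of the 7 HSC libraries in 27 of 28 replication genes and in 29 of 29 mitosis genes. The mean over the replication genes was 5.14, 5.48, 5.16 and 5.07 on the log2 scale in mutant HSC, and 5.37, 5.49 and 4.58 in wild-type HSC. The mean over the mitosis genes was 3.91, 4.53, 4.08 and 4.07 in mutant HSC, and 4.55, 4.29 and 3.37 in wild-type HSC. The summed stem cell markers of wild-type HSC replicate 3 (1032 RPKM) were the highest of the 7 HSC libraries, whose other 6 ran from 945 to 1003 RPKM, and its erythroid markers (924 RPKM) were the lowest. Mutant HSC replicate 2 was at or above the median of the 7 HSC libraries in 28 of 28 replication and 29 of 29 mitosis genes. In the bulk RNA of sorted cells, fewer cells in cycle and less of these transcripts per cell cannot be told apart. The part of library quality was not tested.

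Both gene classes were lowest in HSC and higher in MPP4 and CLP, in mutant and wild-type mice. The replication mean was 5.21 ± 0.18 in mutant and 5.15 ± 0.50 in wild-type HSC, 5.80 ± 0.12 in mutant and 5.97 ± 0.05 in wild-type MPP4, and 6.14 ± 0.06 in mutant and 6.10 ± 0.07 in wild-type CLP (SD over libraries, n = 4 mutant and 3 wild type). The mitosis mean was 4.14 ± 0.27 in mutant and 4.07 ± 0.62 in wild-type HSC, 5.32 ± 0.38 in mutant and 5.42 ± 0.14 in wild-type MPP4, and 5.58 ± 0.10 in mutant and 5.38 ± 0.26 in wild-type CLP. Mitosis genes therefore lay 1.07 below replication genes in both genotypes in HSC. The gap was 0.48 in mutant and 0.55 in wild-type MPP4, and 0.56 in mutant and 0.71 in wild-type CLP. Summed over genes, mitosis transcripts amounted to 591 RPKM in mutant and 587 RPKM in wild-type HSC, 1405 and 1483 RPKM in mutant and wild-type MPP4, and 1686 and 1469 RPKM in mutant and wild-type CLP.

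**Figure D1:**
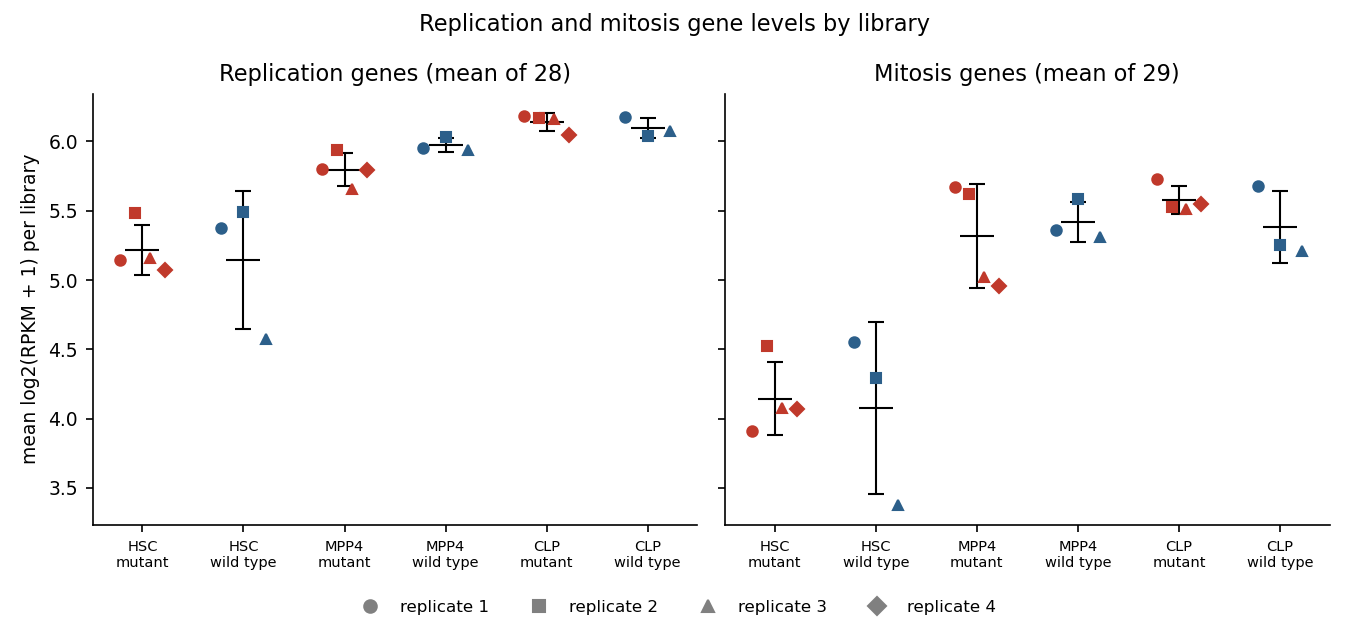
Mean log2(RPKM + 1) over the 28 replication genes (left) and the 29 mitosis genes (right) in each of the 21 libraries, with mutant left of wild type in HSC, MPP4 and CLP, symbols giving the replicate number, and bars giving the group mean and SD. Wild-type HSC replicate 3 lies lowest in both panels, at 4.58 and 3.37, and in MPP4 the mutant mitosis means run from 4.96 to 5.67 around wild-type means of 5.31 to 5.58.

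From HSC to MPP4, 55 of 57 genes were called higher in mutant mice and 56 of 57 in wild-type mice, with larger median differences for mitosis than for replication genes. The genes higher in MPP4 of mutant mice were 26 of 28 replication and 29 of 29 mitosis genes, where 16% of all genes tested were called higher. In wild-type mice they were 27 of 28 replication and 29 of 29 mitosis genes, where 16.1% of all genes were. The median difference was 0.56 for replication and 1.22 for mitosis genes in mutant mice, and 0.79 and 1.39 in wild-type mice, while the medians over all genes were -0.05 and -0.06. Without wild-type HSC replicate 3, which stood apart, the wild-type medians were 0.49 for replication and 1.00 for mitosis genes. No library of MPP4 overlapped a library of HSC in 51 genes of mutant mice and 56 genes of wild-type mice, where 15.3% and 20.4% of all genes lay higher without overlap. E2f1, the activator at the entry into S phase, was not called in either genotype, and Tyms, thymidylate synthase, was not called in mutant mice.

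Among the mitosis genes, the Polo and Aurora kinases had the highest median difference of the roles in both genotypes, 1.34 in mutant and 1.60 in wild-type mice. Genes of the spindle and cytokinesis followed with 1.31 in mutant and 1.46 in wild-type mice. Kif20a, a kinesin of the late spindle, had 10.4, 16.6, 13.6 and 12.4 RPKM in mutant HSC and 16.4, 13.7 and 6.03 in wild-type HSC, 45.3, 45.01, 28.7 and 26.8 RPKM in mutant MPP4 and 39.6, 46.3 and 38.01 in wild-type MPP4, and 44.3, 36.1, 35.1 and 38.1 RPKM in mutant CLP and 46.3, 34.97 and 29.7 in wild-type CLP. The MPP4 libraries all lay above the HSC libraries, by 1.37 ± 0.23 in mutant mice (limma, adjusted p = 6.63e-05) and by 1.80 ± 0.26 in wild-type mice (adjusted p = 1.6e-05), the largest difference of the 57 genes there. In mutant mice the largest was that of Nusap1, a microtubule-binding protein of the spindle, at 61.1, 63.4, 39.3 and 36.9 RPKM in MPP4 against 12.8, 23.8, 17.8 and 16.8 RPKM in HSC (1.43 ± 0.25, adjusted p = 0.000104). Aurkb, the kinase of the chromosomal passenger complex, had 99.2, 98.8, 61.8 and 66.5 RPKM in mutant MPP4 against 28.6, 43.7, 25.4 and 28.8 RPKM in mutant HSC. In wild-type mice Aurkb had 91.6, 99.2 and 87.9 RPKM in MPP4 against 36.7, 36.4 and 18.3 RPKM in HSC. The difference was 1.34 ± 0.21 in mutant and 1.64 ± 0.24 in wild-type mice, with no overlap of libraries in either genotype.

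Cyclins and their kinase rose by a median of 1.12 in mutant and 1.33 in wild-type mice. Ccnb1, the main mitotic cyclin, had 28.9, 36.6, 28.97 and 30.01 RPKM in mutant HSC and 42.5, 30.9 and 15.8 in wild-type HSC, 97.7, 78.7, 51.3 and 55.1 RPKM in mutant MPP4 and 76.2, 87.8 and 73.04 in wild-type MPP4, and 79.8, 78.9, 72.3 and 82.8 RPKM in mutant CLP and 99.5, 52.2 and 60.2 in wild-type CLP. Cdk1, the kinase it activates, averaged 22.9 ± 4.96 RPKM in mutant and 23.5 ± 9.12 RPKM in wild-type HSC, 48.2 ± 10.7 and 53.3 ± 2.69 RPKM in mutant and wild-type MPP4, and 55.4 ± 2.67 and 48.5 ± 11.5 RPKM in mutant and wild-type CLP. Its MPP4 minus HSC difference was 1.04 ± 0.20 in mutant and 1.22 ± 0.23 in wild-type mice. Ccna2, a cyclin of S phase and early mitosis, differed by 1.13 ± 0.24 in mutant and 1.40 ± 0.28 in wild-type mice. Both genes of the anaphase-promoting complex rose. Ube2c, the ubiquitin-conjugating enzyme of that complex, had 44.3, 67.4, 37.1 and 46.5 RPKM in mutant HSC and 62.8, 55.3 and 25.3 in wild-type HSC, 178, 153, 103 and 95.5 RPKM in mutant MPP4 and 112, 154 and 136 in wild-type MPP4, and 185, 182, 177 and 177 RPKM in mutant CLP and 200.5, 132 and 127 in wild-type CLP, the highest level of any mitosis gene in each of the 6 groups. It differed by 1.41 ± 0.24 and 1.56 ± 0.28 between MPP4 and HSC, and its activator Cdc20 by 1.12 ± 0.22 and 1.20 ± 0.25, in mutant and wild-type mice each time.

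The 4 spindle checkpoint genes rose by a median of 1.11 in mutant and 1.27 in wild-type mice. Bub1b, the checkpoint kinase-like protein BubR1, differed by 1.26 ± 0.23 in mutant and 1.47 ± 0.27 in wild-type mice. Centromere genes rose by a median of 1.08 in mutant and 1.23 in wild-type mice, with Cenpa, the histone variant that marks centromeres, at 0.97 ± 0.15 in mutant and 1.22 ± 0.18 in wild-type mice. Mki67, which coats mitotic chromosomes and is the common label of cycling cells, had 16.4, 25.03, 16.5 and 16.96 RPKM in mutant HSC and 19.4, 20.2 and 9.60 in wild-type HSC, 59.4, 46.8, 32.6 and 28.2 RPKM in mutant MPP4 and 31.5, 46.6 and 35.7 in wild-type MPP4, and 57.7, 45.2, 43.6 and 46.9 RPKM in mutant CLP and 48.1, 44.4 and 34.8 in wild-type CLP. All MPP4 libraries lay above all HSC libraries of their own genotype, by 1.08 ± 0.23 in mutant and 1.21 ± 0.26 in wild-type mice. Top2a, the topoisomerase that untangles sister chromatids, differed by 1.42 ± 0.27 in mutant and 1.44 ± 0.32 in wild-type mice. Foxm1, the factor that activates genes of mitosis, differed by 1.28 ± 0.25 in mutant and 1.39 ± 0.28 in wild-type mice. Prc1, which bundles the microtubules of the central spindle, was called in wild-type mice but no longer without wild-type HSC replicate 3 (adjusted p = 0.154) or MPP4 replicate 2 (adjusted p = 0.0767).

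Among the replication genes the smallest median difference was that of genes of the replication fork, 0.51 in mutant and 0.60 in wild-type mice. Pcna had 99.5, 135, 127 and 119.6 RPKM in mutant HSC and 140.2, 151 and 85.8 RPKM in wild-type HSC, and 162, 181, 167 and 184 RPKM in mutant MPP4 and 196, 193 and 181 RPKM in wild-type MPP4. Its difference was 0.54 ± 0.13 in mutant mice (adjusted p = 0.0027) and 0.63 ± 0.15 in wild-type mice (adjusted p = 0.00231, limma with Benjamini-Hochberg adjustment). Licensing genes rose by a median of 0.54 in mutant and 0.76 in wild-type mice, and genes of helicase activation by 0.82 in mutant and 1.05 in wild-type mice. Mcm7, the most abundant of the 57 genes over the 21 libraries, had 157, 199, 164 and 154 RPKM in mutant HSC and 185, 195 and 108 RPKM in wild-type HSC, and 266, 274, 235 and 248 RPKM in mutant MPP4 and 283, 285 and 276 RPKM in wild-type MPP4. Its difference was 0.61 ± 0.13 in mutant and 0.83 ± 0.15 in wild-type mice. The 6 helicase subunits, which act in equal numbers in the ring, had mean levels per length between 86.1 and 168 RPKM in mutant and 82.2 and 167 RPKM in wild-type HSC, and the highest was 1.92 to 2.26 times the lowest in all 6 groups.

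Mcm2 had the smallest called difference, 0.34 ± 0.12 in mutant mice (adjusted p = 0.0331) and 0.53 ± 0.14 in wild-type mice (adjusted p = 0.00491). The mutant call did not hold without HSC replicate 3 or 4 or MPP4 replicate 2 or 4 (adjusted p = 0.0744 to 0.117), nor after quantile normalization (adjusted p = 0.127). Calls of Ccne2 in mutant mice (adjusted p = 0.0376) ended without HSC replicate 1 or 4 or MPP4 replicate 2 or 4 (0.0733 to 0.159), and in a fit on the 2 groups compared alone (0.0637). Pola1, the catalytic subunit of the primase-bearing polymerase alpha, was called at 0.46 ± 0.16 in mutant mice, which ended without HSC replicate 4 or MPP4 replicate 1 or 2 (0.0681 to 0.0733). Its wild-type difference of 0.56 ± 0.18 was 0.29 without HSC replicate 3 (adjusted p = 0.167) and was not called without MPP4 replicate 1 or 2 (0.0705 and 0.0546) or in the fit on 2 groups (0.0815). Pold1, the catalytic subunit of polymerase delta, had a wild-type difference of 0.58 ± 0.19, which was 0.29 without HSC replicate 3 (adjusted p = 0.172) and not called without MPP4 replicate 1 (0.0726) or in the fit on 2 groups (0.0705). Tyms had a wild-type difference of 0.74 ± 0.23, which was 0.33 without HSC replicate 3 (adjusted p = 0.143) and not called without MPP4 replicate 2 (0.0650) or in the fit on 2 groups (0.0891). Without wild-type HSC replicate 3, 50 of 57 genes were called in wild-type mice.

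E2f1 was the 1 gene of the 57 called in no comparison of populations. It had 29.7, 35.2, 17.98 and 17.46 RPKM in mutant HSC and 25.8, 32.2 and 16.4 in wild-type HSC, 26.4, 26.1, 29.2 and 32.1 RPKM in mutant MPP4 and 26.3, 34.01 and 35.2 in wild-type MPP4, and 41.7, 38.5, 18.8 and 27.6 RPKM in mutant CLP and 32.6, 36.5 and 30.8 in wild-type CLP. Its values in HSC, MPP4 and CLP overlapped in mutant mice, with the lowest mutant CLP library at 18.8 RPKM and the highest mutant HSC library at 35.2 RPKM. The MPP4 minus HSC difference was 0.23 ± 0.24 in mutant mice (adjusted p = 0.476) and 0.39 ± 0.27 in wild-type mice (adjusted p = 0.283), and the CLP minus HSC difference 0.32 ± 0.24 in mutant and 0.45 ± 0.27 in wild-type mice.

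From MPP4 to CLP, genes passed the threshold in mutant mice, and with 1 exception these were genes of replication and of the entry into S phase. Every mitosis gene also had a positive difference in mutant mice, most of them short of the threshold. There 12 of 57 genes were higher in CLP, 11 replication genes and 1 mitosis gene, where 7.86% of all genes tested were called higher. In wild-type mice 0 of 57 were called, where 4.77% of all genes were called higher and 8.38% lower. Of the 57, 1 gene, Ccne1, had an unadjusted p under 0.05 there, and the number over all genes is not given. The median difference was 0.32 for replication and 0.26 for mitosis genes in mutant mice, and 0.08 and -0.01 in wild-type mice, while the medians over all genes were -0.06 and -0.05. The mitosis median in mutant mice was 0.16 without MPP4 replicate 3 and 0.14 without MPP4 replicate 4. The 12 genes were Mcm2, Mcm4, Mcm6, Cdc6, Gins2, Fen1, Rpa2, Rrm2, Uhrf1, Ccne1, Ccne2 and Kif23. In wild-type mice their differences were also positive, between 0.05 and 0.49. The count in mutant mice was 6 without MPP4 replicate 3 and 6 without CLP replicate 1, and 5 after quantile normalization. A fit on the 2 groups compared alone called 22 genes in mutant and 3 in wild-type mice, and with a replicate block 1 gene, Ccne1, was called in wild-type mice. The shares of all genes called under these alternatives are not given here.

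Rrm2, the regulated small subunit of ribonucleotide reductase, had 32.3, 58.2, 45.3 and 33.9 RPKM in mutant HSC and 37.5, 44.9 and 16.99 in wild-type HSC, 71.9, 115, 66.8 and 83.6 RPKM in mutant MPP4 and 98.6, 104 and 86.1 in wild-type MPP4, and 162, 157, 164 and 139 RPKM in mutant CLP and 143, 136 and 127 in wild-type CLP. Every CLP library lay above every MPP4 library in both genotypes, and every MPP4 library above every HSC library. CLP exceeded MPP4 by 0.90 ± 0.23 in mutant mice (limma, adjusted p = 0.00536) and by 0.49 ± 0.26 in wild-type mice (adjusted p = 0.264). Its partner Rrm1 differed by 0.21 ± 0.15 in mutant and 0.04 ± 0.18 in wild-type mice. Ccne1, a cyclin E gene that starts S phase with Cdk2, had 6.42, 5.24, 4.50 and 5.12 RPKM in mutant HSC and 4.26, 6.80 and 2.78 in wild-type HSC, 9.90, 9.12, 8.18 and 8.56 RPKM in mutant MPP4 and 9.44, 11.6 and 8.01 in wild-type MPP4, and 16.8, 16.5, 14.2 and 14.1 RPKM in mutant CLP and 11.6, 18.02 and 12.8 in wild-type CLP. The CLP libraries again lay above the MPP4 libraries in both genotypes, by 0.72 ± 0.17 in mutant mice (adjusted p = 0.00409) and 0.49 ± 0.20 in wild-type mice (adjusted p = 0.126). In wild-type mice the margin was very narrow, with the lowest CLP library at 11.589 RPKM and the highest MPP4 library at 11.559 RPKM. Ccne2, the other cyclin E gene, had 9.73, 10.7, 14.997 and 11.1 RPKM in mutant CLP against 5.49, 7.75, 4.65 and 7.14 RPKM in mutant MPP4 (0.81 ± 0.20, adjusted p = 0.00448). In wild-type mice it had 9.25, 8.45 and 11.3 RPKM in CLP against 7.17, 9.05 and 8.48 RPKM in MPP4, which overlapped (0.20 ± 0.23, adjusted p = 0.655).

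Uhrf1, which carries DNA methylation onto new strands, had 193, 182, 179 and 155 RPKM in mutant CLP against 118, 137, 108 and 121 RPKM in mutant MPP4, and 189, 182 and 166 RPKM in wild-type CLP against 145, 142 and 135 RPKM in wild-type MPP4. Neither genotype overlapped between populations. The difference was 0.55 ± 0.17 in mutant mice (adjusted p = 0.0203), not called without CLP replicate 1 (0.0562) or MPP4 replicate 3 (0.0633) or after quantile normalization (0.0715), and 0.35 ± 0.19 in wild-type mice (adjusted p = 0.296). Mcm2 in mutant mice differed by 0.40 ± 0.12 (adjusted p = 0.0203), not called without CLP replicate 1 or 2 or MPP4 replicate 3 (0.0502 to 0.0582) or after quantile normalization (0.0929). Gins2, a subunit of the GINS complex, differed by 0.42 ± 0.11 in mutant mice (adjusted p = 0.00877) and 0.05 ± 0.13 in wild-type mice (adjusted p = 0.877). Kif23, a kinesin of cytokinesis, was the called mitosis gene, at 0.39 ± 0.12 (adjusted p = 0.0164), not called without CLP replicate 1 (0.0607) or MPP4 replicate 4 (0.0764).

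Without regard to calls, all CLP libraries lay above all MPP4 libraries in 21 genes of mutant mice, where 9.05% of all genes did so, and in 11 genes of wild-type mice, where 11.2% did. All 11 of the wild-type genes were among the 21 of mutant mice. They were Mcm2, Mcm3, Mcm4, Mcm5, Mcm6, Cdc6, Fen1, Rpa2, Rrm2, Uhrf1 and Ccne1, all of them replication genes. Cdc20 had the most negative wild-type difference, at 84.4, 47.1 and 52.8 RPKM in CLP against 74.8, 82.03 and 69.97 RPKM in MPP4 (-0.34 ± 0.25, adjusted p = 0.462), with overlap. In mutant mice Pola1 had the only negative difference of the 57 genes (-0.09 ± 0.16, adjusted p = 0.711).

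**Figure D2:**
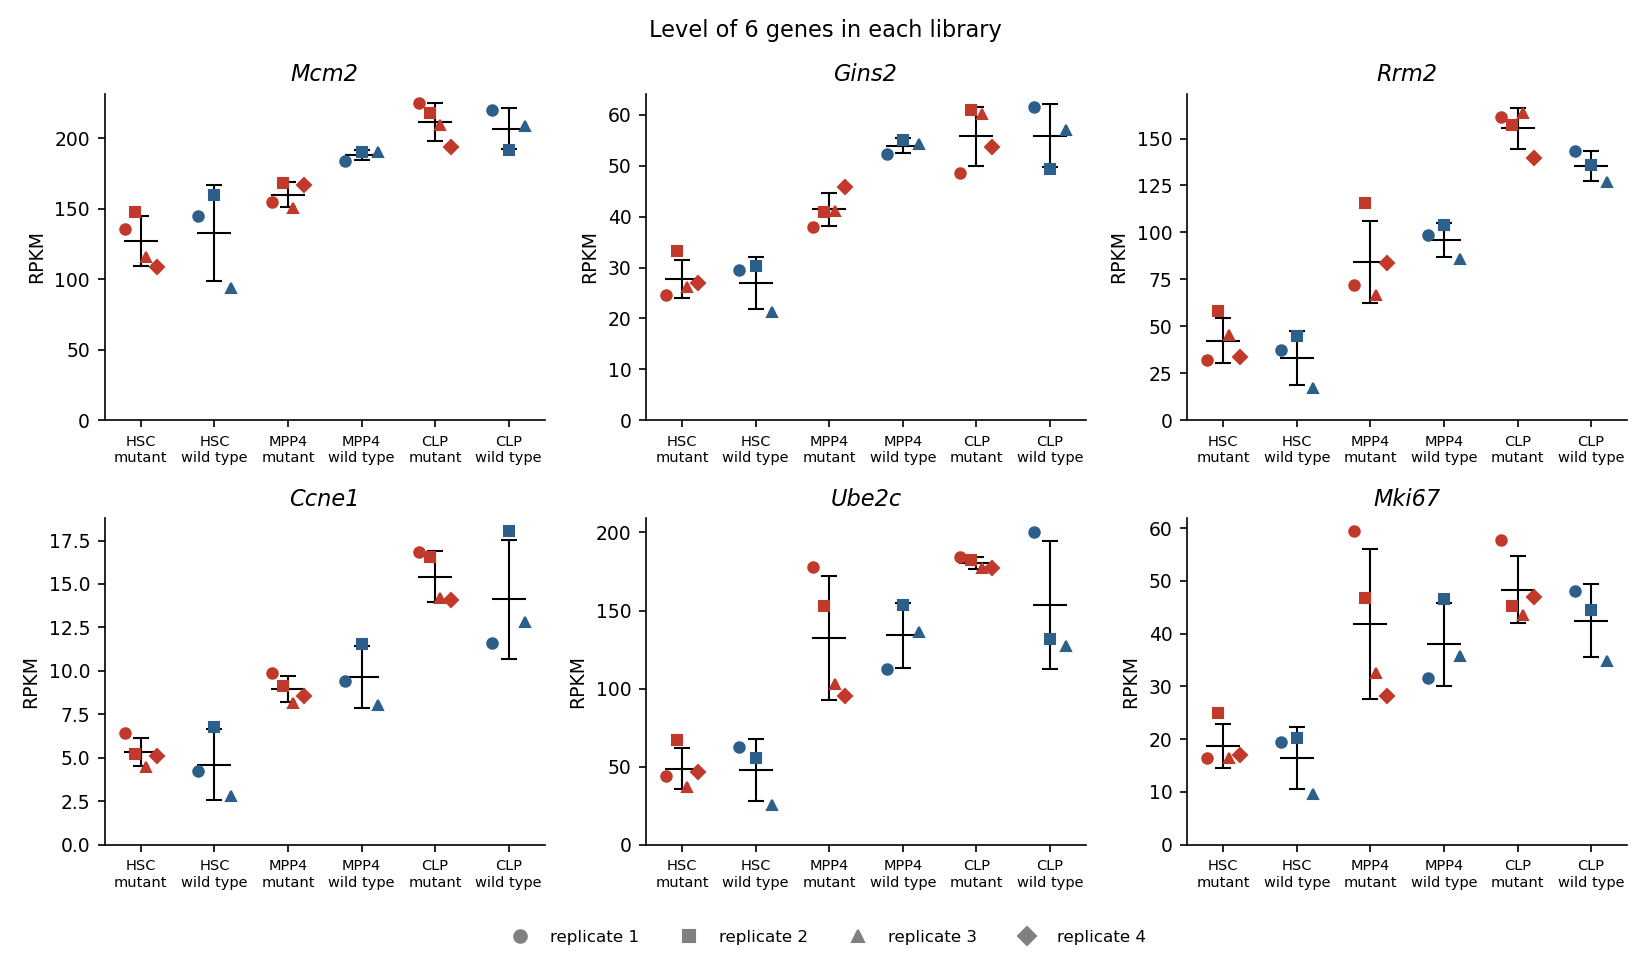
RPKM of Mcm2, Gins2, Rrm2, Ccne1, Ube2c and Mki67 in each library, with mutant left of wild type in HSC, MPP4 and CLP, symbols giving the replicate number, and bars giving mean and SD. Rrm2 and Ccne1 do not overlap between the 3 populations in either genotype, though Ccne1 in wild-type mice nearly does (lowest CLP library 11.589 RPKM, highest MPP4 library 11.559 RPKM). Ube2c and Mki67 overlap between MPP4 and CLP, and Gins2 is lower in the 4 mutant MPP4 libraries (38.0 to 45.8 RPKM) than in the 3 wild-type MPP4 libraries (52.2 to 55.1 RPKM).

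Over both steps together, 55 of 57 genes were higher in CLP than in HSC in mutant mice, where 21.8% of all genes were called higher, and 56 of 57 in wild-type mice, where 19.4% were. No CLP library overlapped an HSC library in 56 genes of mutant mice (19.6% of all genes lay higher without overlap) and 54 genes of wild-type mice (20.9%). The median difference was 0.83 for replication and 1.41 for mitosis genes in mutant mice, and 0.84 and 1.36 in wild-type mice, where they were 0.61 and 0.97 without HSC replicate 3. The medians over all genes were -0.11 and -0.10, and median-ratio scaling moved them to -0.01 and -0.00. The largest difference was that of Ube2c in mutant mice (1.90 ± 0.24, adjusted p = 1.29e-06) and that of Rrm2 in wild-type mice (2.10 ± 0.26, adjusted p = 1.05e-06). E2f1 was not called in either genotype, and Pola1 was not called in mutant mice (0.37 ± 0.16, adjusted p = 0.0501). In wild-type mice 49 genes were called without HSC replicate 3, which ended the calls of Pola1 (adjusted p = 0.182), Pold1 (0.0656), Prc1 (0.1001), Tyms (0.384) and Cdc20 (0.0630). Without CLP replicate 1 the calls of Pola1 (0.105), Tyms (0.0969) and Cdc20 (0.0575) ended, as did that of Tyms without CLP replicate 3 (0.106), and a fit on the 2 groups compared alone ended those of Pola1 (0.101) and Tyms (0.143). The mutant CLP group had the highest mean of the 6 groups in 20 of 28 replication genes and in 23 of 29 mitosis genes.

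**Figure D3:**
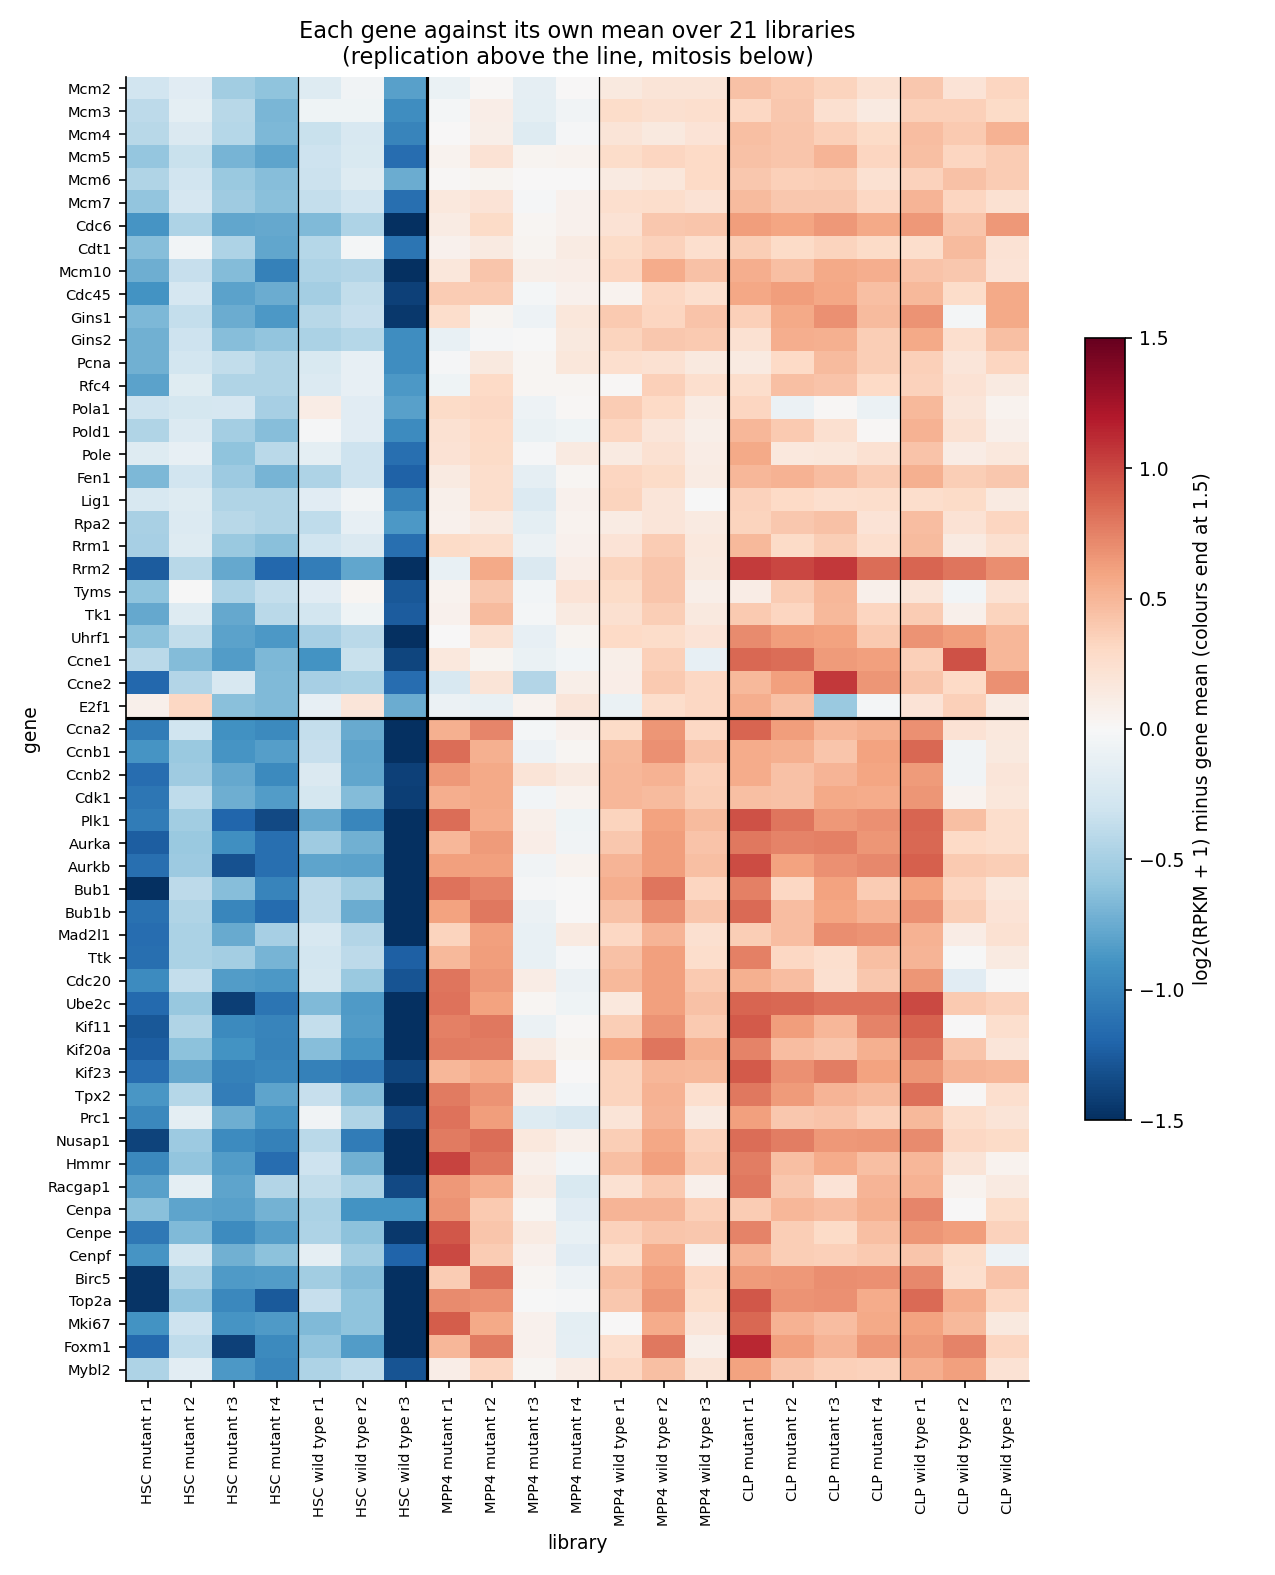
Level of each of the 57 genes in each of the 21 libraries, as log2(RPKM + 1) minus the mean of that gene over the libraries, with replication genes above the line and mitosis genes below it, and libraries in the order HSC, MPP4 and CLP with mutant left of wild type. HSC columns are low in nearly all rows, wild-type HSC replicate 3 is the lowest of them in 27 of 28 replication and 29 of 29 mitosis genes, and E2f1 is the 1 gene called in no comparison of populations.

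Between genotypes, 0 of 57 genes were called in any population. The class medians were slightly positive in HSC and CLP and slightly negative in MPP4. No change of the genotype difference between populations was called for any of the 57 genes. In HSC the median mutant minus wild-type difference was 0.08 for replication and 0.09 for mitosis genes, against 0.01 over all genes. Of the 57 genes 41 were positive, as were 6179 of the 11496 genes tested. Of all genes tested, 0.0522% were called there, and 0 of the 57 genes had an unadjusted p under 0.05, against 512 of the 11496 genes tested. The genotypes overlapped in all 57 genes, where 3.36% of all genes lay higher and 1.9% lower in mutant HSC without overlap. Both medians turned negative on leaving out either of 2 libraries. Without wild-type HSC replicate 3 they were -0.23 and -0.30, and without mutant HSC replicate 2 they were -0.02 and -0.07. Pairs of mice matched for number, age and sex differed in direction. The pair numbered 1 had medians of -0.22 and -0.68, the pair numbered 2 had -0.00 and 0.24, and the pair numbered 3, which holds the low wild-type library, had 0.56 and 0.72. Rrm2 had the largest difference in HSC, at 32.3, 58.2, 45.3 and 33.9 RPKM in mutant against 37.5, 44.9 and 16.99 RPKM in wild-type cells (0.42 ± 0.24, limma, adjusted p = 0.99958). Over the 57 genes, the 95% intervals of single genes, not adjusted for their number, reached from -0.70 to 0.92. Erythroid marker sums ran from 973 to 3836 RPKM in mutant and 924 to 5034 RPKM in wild-type HSC (12 of 15 genes in the table), with replicate 2 the highest of each genotype. Megakaryocyte marker sums (8 of 9) ran from 249.9 to 291 RPKM in mutant and 316 to 351 RPKM in wild-type HSC without overlap, and neutrophil granule markers (9 of 12) from 93.9 to 245 RPKM in mutant and 164 to 1451 RPKM in wild-type HSC. Their part in these differences was not tested.

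In MPP4 the 28 replication genes all had lower means in mutant cells, by less than the threshold for any 1 gene. The median difference was -0.16 for replication genes, with 28 of 28 negative, and -0.11 for mitosis genes, with 24 of 29 negative, against 0.02 over all genes. Among the 11496 genes tested, 5077 were negative. The genes share the same libraries, so these counts are not independent results. Mutant MPP4 replicate 3 was the lowest MPP4 library in 22 of 28 replication genes. Of all genes tested, 0.217% were called. The replication median stayed below 0 with any 1 library left out, between -0.21 and -0.12, whereas the mitosis median ran from -0.23 to 0.01 and was 0.01 without mutant MPP4 replicate 4. In 9 genes every mutant MPP4 library lay below every wild-type MPP4 library, where 3.41% of all genes did so. These were the 6 helicase subunits Mcm2 to Mcm7, the loading factor Cdt1, and the GINS subunits Gins1 and Gins2. The matched pairs numbered 1, 2 and 3 had replication medians of -0.17, -0.08 and -0.26. Their mitosis medians differed in direction, at 0.27, 0.02 and -0.33.

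Gins2 came nearest to the threshold in MPP4, at 38.01, 40.9, 41.2 and 45.8 RPKM in mutant against 52.2, 55.1 and 54.4 RPKM in wild-type cells. The difference was -0.37 ± 0.12 (95% interval -0.62 to -0.12, limma, adjusted p = 0.298). In the other populations the genotypes overlapped, with 24.7, 33.2, 26.3 and 27.01 RPKM in mutant HSC and 29.5, 30.4 and 21.2 RPKM in wild-type HSC, and 48.6, 60.9, 60.1 and 53.7 RPKM in mutant CLP and 61.6, 49.3 and 56.9 RPKM in wild-type CLP. Mcm2 had 155, 168, 151 and 167 RPKM in mutant against 184, 189.8 and 190.04 RPKM in wild-type MPP4 (-0.23 ± 0.13, adjusted p = 0.706). Mcm7 differed by -0.14 ± 0.14 (adjusted p = 0.893), and Ccne2, with overlap, by -0.36 ± 0.21 (adjusted p = 0.725). Apart from that of Gins2, 0 of the single-gene 95% intervals in MPP4 left 0 out, and the 57 intervals together reached from -0.81 to 0.61. Of the 11496 genes tested, 936 had an unadjusted p under 0.05 in limma there.

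The mitosis genes were spread widely among the mutant MPP4 libraries. Mutant MPP4 libraries supplied both the highest and the lowest of the 7 MPP4 values in 25 of 29 mitosis genes. Replicate 1 or 2 was the highest in 25 genes, and replicate 3 or 4 the lowest in 29. The median SD of a mitosis gene was 0.41 in mutant and 0.14 in wild-type MPP4 on the log2 scale, against 0.14 in mutant and 0.11 in wild-type MPP4 for a replication gene. Kif11 had 64.9, 66.8, 35.9 and 38.6 RPKM in mutant and 49.4, 61.4 and 50.4 RPKM in wild-type MPP4. Mki67 had 59.4, 46.8, 32.6 and 28.2 RPKM in mutant and 31.5, 46.6 and 35.7 RPKM in wild-type MPP4, so the wild-type libraries lay within the mutant range.

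The summed levels of 3 marker lists did not overlap between genotypes in MPP4. Summed stem cell markers (11 of 11 genes in the table) ran from 332 to 353 RPKM in mutant and 241 to 276 RPKM in wild-type MPP4. Summed MPP4 markers (7 of 7) ran from 1573 to 1804 RPKM in mutant and 2030 to 2322 RPKM in wild-type cells, and CLP markers (8 of 8, Flt3 and Dntt shared with the MPP4 list) from 907 to 1031 RPKM in mutant and 1189 to 1550 RPKM in wild-type cells. These sums are not independent, since Dntt, in both lists, averaged 527 RPKM in mutant and 889 RPKM in wild-type MPP4. Flt3 averaged 383 RPKM in mutant and 384 RPKM in wild-type MPP4, and Cd34 of the MPP4 list 388 and 370 RPKM. Erythroid markers (12 of 15) ran from 2240 to 4908 RPKM in mutant and 495 to 2978 RPKM in wild-type MPP4. All 12 had higher means in mutant MPP4, with a median difference of 1.36 on the log2 scale, and 0 of them were called. Neutrophil granule markers (9 of 12) ran from 749 to 2338 RPKM in mutant and 575 to 1110 RPKM in wild-type MPP4. The megakaryocyte marker sum (8 of 9) was high in replicate 1 of both genotypes, at 229.8 RPKM in mutant and 176 RPKM in wild-type cells. It was at most 29.1 RPKM in the other 5 libraries. The high wild-type sum was mostly Pf4, at 150.2 RPKM. The high mutant sum was spread over more of the list, with Gp9 at 59.4, Itga2b at 43.1 and Pf4 at 36.5 RPKM. Dendritic cell markers (9 of 9) were 360.3, 314, 583 and 538 RPKM in mutant replicates 1 to 4 and 380.4 to 451 RPKM in wild-type MPP4, so the mutant libraries low in mitosis genes were the high ones in this sum. Cd74 alone ran from 136 to 355 RPKM in mutant MPP4. Cd74, Ccr9 and Ly6c2 had higher means in mutant than in wild-type MPP4, and the rest of the list had lower means. B-lineage markers (9 of 10) ran from 47.7 to 66.4 RPKM in mutant and 47.0 to 66.0 RPKM in wild-type MPP4, while T and NK cell markers (3 of 9) were 151, 185, 105 and 98.3 RPKM in mutant replicates 1 to 4 and 148 to 182 RPKM in wild-type MPP4, with the mutant libraries low in mitosis genes also low in this sum. It was mostly Nkg7, which ran from 66.4 to 148 RPKM in mutant and 97.4 to 144 RPKM in wild-type MPP4. No list had a member at 0 in all libraries of a group, and the part of these cells in the differences was not tested.

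In CLP both class medians were above 0, though no change of the genotype difference from MPP4 was called for any member. The median mutant minus wild-type difference was 0.04 for replication genes, with 20 of 28 positive, and 0.20 for mitosis genes, with 27 of 29 positive, against 0.00 over all genes. Of all genes tested 0% were called, and 0 of the 57 genes had an unadjusted p under 0.05, for which the number over all genes is not given here. The mitosis median stayed above 0 with any 1 library left out (0.13 to 0.38), and the replication median ran from -0.01 to 0.08 and was negative without wild-type CLP replicate 2. The matched pairs numbered 1, 2 and 3 had mitosis medians of 0.08, 0.35 and 0.32. Wild-type CLP replicate 2 or 3 held the lowest of the 7 CLP values in 28 of 29 mitosis genes, so the count of positive mitosis genes does not stand for independent results. Kif11 had the largest difference, at 73.02, 59.2, 54.3 and 64.6 RPKM in mutant against 71.1, 38.4 and 45.6 RPKM in wild-type CLP (0.32 ± 0.30, limma, adjusted p = 0.99978), with overlap. Mcm10, a helicase activator named after its values were seen, was the 1 gene whose mutant libraries all lay above the wild-type libraries (0.18), where 1.94% of all genes did so. Neutrophil granule markers ran from 239 to 2118 RPKM in mutant and 310.0 to 578 RPKM in wild-type CLP, and erythroid markers from 122 to 4915 RPKM in mutant and 1012 to 1631 RPKM in wild-type CLP. B-lineage markers ran from 118 to 370.1 RPKM in mutant and 228 to 391.6 RPKM in wild-type CLP, and all 9 had lower means in mutant CLP, with a median difference of -0.57 and 0 called. CLP markers ran from 2511 to 3562 RPKM in mutant and 3059 to 3453 RPKM in wild-type CLP, with 7 of 8 lower and a median difference of -0.24. The part of these cells was not tested.

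**Figure D4:**
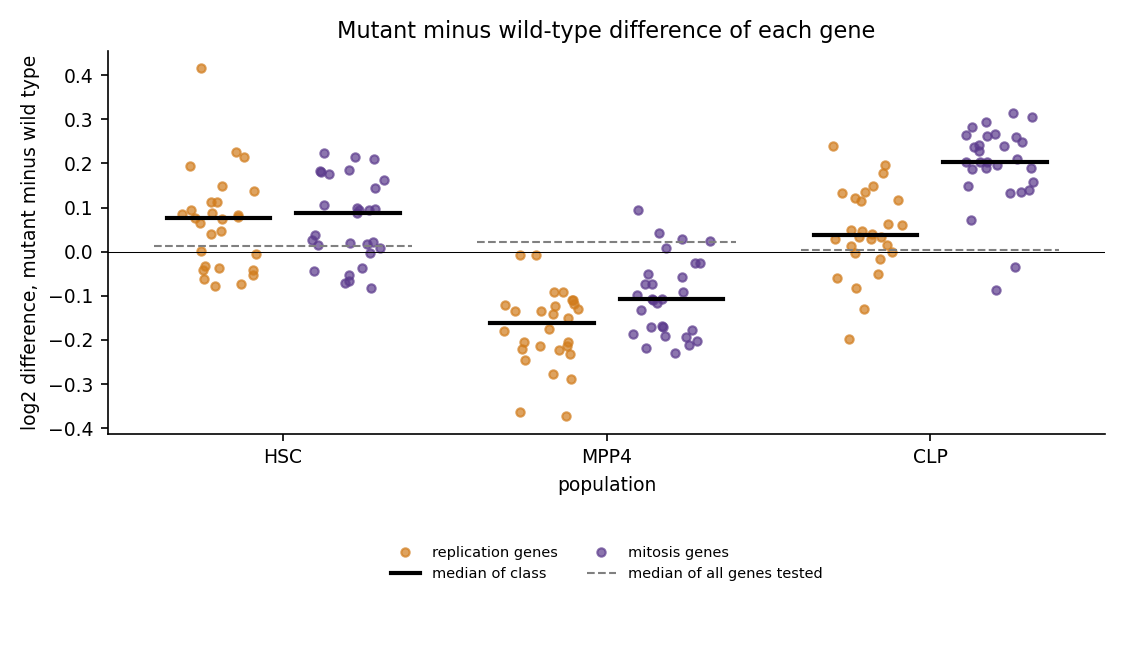
Mutant minus wild-type difference on the log2 scale of each of the 57 genes in HSC, MPP4 and CLP, as points with replication genes left of mitosis genes, black bars at the class medians and dashed lines at the median of all genes tested. The replication median lies at -0.16 in MPP4 with 28 of 28 genes below 0, and the mitosis median at 0.20 in CLP with 27 of 29 above 0, and 0 of 57 genes were called in any population. Genes of a class share the same libraries, so these counts are not independent results.

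The change of the genotype difference between populations was tested directly, since a step called in 1 genotype and not in the other does not show that the steps differ. No member was called for MPP4 against HSC, CLP against MPP4 or CLP against HSC, where 0%, 0% and 0.0087% of all genes were. How many of all genes had an unadjusted p under 0.05 is not given here for these comparisons. Of the 57 genes, 1, 1 and 0 reached it in limma, and the gene was Gins2 both times. Its genotype difference in MPP4 minus that in HSC was -0.42 ± 0.17 (adjusted p = 0.99997), and that in CLP minus that in MPP4 was 0.37 ± 0.17 (adjusted p = 0.998). The medians for CLP against MPP4 were 0.20 for replication and 0.33 for mitosis genes, against -0.02 over all genes. The 12 calls in mutant and 0 calls in wild-type mice between CLP and MPP4 therefore rest on steps that were not shown to differ, and the single-gene 95% intervals of that difference ran from -0.74 to 1.31.

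Other genes of the same processes, from lists of 54 further replication genes (54 in the table) and 81 further mitosis genes (76 in the table), were tested in the same fit. From HSC to MPP4, 34 further replication genes were called higher and 1 lower in mutant mice, and 37 higher and 0 lower in wild-type mice. Further mitosis genes called higher numbered 71 in mutant and 69 in wild-type mice, and 2 were called lower in each. Of all genes tested, 16% were called higher in this step in mutant and 16.1% in wild-type mice. The shares called lower are not given here, so the counts of further genes called lower have no background beside them. The largest difference was that of Ect2, which activates the RhoA GTPase for cytokinesis, at 1.65 in mutant and 2.20 in wild-type mice. The lowest was that of Cenpt, a kinetochore protein, at -0.83 in mutant and -0.74 in wild-type mice. From MPP4 to CLP, 6 of the 54 further replication genes were higher in mutant and 1 in wild-type mice, where 7.86% and 4.77% of all genes were called higher. Dck, the deoxycytidine kinase of the nucleotide salvage pathway, was called in both (0.68 in wild-type mice). In the same step 1 further mitosis gene was called in each genotype, Zwint, a kinetochore protein, with differences of -0.33 in mutant and -0.26 in wild-type mice. Of all genes tested, 8.38% were called lower in this step in wild-type mice, and the share in mutant mice is not given here. Between genotypes 0 further genes of either list were called in any population, where at most 0.217% of all genes were. The medians of the further genes were -0.02 for replication and 0.06 for mitosis genes in HSC, -0.10 and -0.08 in MPP4, and 0.06 and 0.14 in CLP.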

How the data were processed

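RNA-seq values were deposited by the authors as RPKM in 1 table of 11628 genes by 21 libraries. Per the labels' protocols, sorted cells were lysed, total RNA was purified, and SMART-seq v4 cDNA was made into NexteraXT libraries. Alignment was with STAR to mm10, per the submitters' processing notes. Not given in the sources used here are the STAR version, counting tool, annotation, strand setting and rule for listing genes. Depth is unknown, so no counting intervals are given, and reads of genes that overlap a member cannot be told apart.

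Values were analysed as log2(RPKM + 1), which understates changes of low genes, for 11496 genes at 1 RPKM or more in at least 3 libraries (132 removed). With limma 3.58.1 (R 4.3.3), 1 mean per group was estimated for the 6 groups together, with trended variances, 15 residual and 4.62 prior degrees of freedom. Tests were two-sided, with Benjamini-Hochberg adjustment over the 11496 genes within each of 12 comparisons. The procedure was tested on simulated data. The members, role groups and other gene lists were chosen with earlier results of these data known. Genes named with all library values were the most abundant of each role, 6 textbook markers, and the extremes of each class and comparison. The tests took libraries as independent and did not pair them by number, and medians of matched pairs are descriptions. Alternatives were other pseudocounts, no filter, median-ratio and quantile scaling, replicate blocks, sex and age terms, fits on fewer groups, and leaving out each library. Promoter sequences are from RefSeq (GRCm38.p6), with the first listed start used where a gene had several, and exons were taken from GENCODE vM21.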

Additional observations from a re-analysis of the deposited data

Results flagged for a closer look

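In 6 of 111 sets of 4 mutant libraries tested, 1 library lay farther from the others than Dixon's 95% criterion allows, and chance gives about 1 in 20. In 4 of the 6 the library was mutant HSC replicate 2, from a 12-week-old male, and the genes were genes of mitosis. There Ccna2 was at 58.1 RPKM, against 34.3 to 37.8 RPKM in the other 3 mutant HSC libraries. Mki67 was at 25.0 RPKM against 16.4 to 16.96 RPKM, Ccnb1 at 36.6 RPKM against 28.9 to 30.0 RPKM, and Cdc20 at 41.2 RPKM against 27.1 to 29.3 RPKM. The same library had the highest erythroid marker sum of the mutant HSC libraries, 3836 RPKM against 973 to 1698 RPKM, and the part of such cells was not tested. The mean over the replication genes was 6.05 on the log2 scale in mutant CLP replicate 4, against 6.16 to 6.18 in the other 3 mutant CLP libraries. The mean over the mitosis genes was 5.73 in mutant CLP replicate 1, against 5.51 to 5.55 in the other 3.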

How the results depend on the processing

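The counts of members called between HSC and either progenitor stayed within 1.5 times under every alternative run, at 53 to 56 in mutant and 51 to 56 in wild-type mice for MPP4 against HSC, and at 55 to 56 and 54 to 56 for CLP against HSC. With 1 library left out they ran from 48 to 56 and 50 to 56 for MPP4, and from 55 to 56 and 49 to 56 for CLP. The counts between genotypes, and those of changes in the genotype difference, were 0 under every alternative. The count for CLP against MPP4 depended on the processing. In mutant mice it was 12, and it was 5 with quantile normalization, 22 when the fit held only the 2 groups compared, and 6 to 12 with 1 library left out. In wild-type mice it was 0, with 3 when the fit held only those groups and 1 with sex and age as terms. How many of all genes each alternative called is not given here. The called differences of named genes were recomputed as 2197 values, of which 2152 kept their direction and call and 45 kept their direction and missed the threshold. Their differences between genotypes, none of them called, were recomputed as 1632 values, of which 1500 kept their direction and 132 changed sign, 115 of these with 1 library left out. The medians of the steps between populations, added after seeing the data, moved by less than the spread between libraries under each alternative. For wild-type HSC that spread includes replicate 3, which widens it. Without that library the wild-type MPP4 minus HSC medians fell from 0.79 to 0.49 for replication and from 1.39 to 1.00 for mitosis genes.

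The design counts 7 mice for 21 libraries, so same-numbered libraries may share a mouse, but no label ties a number to a mouse, and the mutant libraries numbered 4 differ in age. Deviations from the group means correlated at 0.0941 to 0.481 between libraries of the same number and genotype (above 0.1 in 19 of 21 pairs), and 16 of 21 libraries correlated best with a library of their own number, a hint from the data and not from the design. With the replicate block, by number or by mouse, 1 member was called for CLP against MPP4 in wild-type mice, and the block changed the calls of no other comparison by over 1.5 times. RPKM holds no depth, groups hold 3 or 4 mice, and the median standard error of a genotype difference was 0.17 for replication and 0.25 for mitosis genes on the log2 scale.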
